A study of Mus musculus with 12 samples.

Results

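The mRNAs of 10 germline genes were followed in mouse embryonic stem (ES) cells of the E14 line after knockdown (KD) of factors that write, oxidize or read DNA methylation. The genes were Dazl, Ddx4, Mael, Mov10l1, Asz1, Sycp1, Sycp3, Tex101, Dpep3 and Slc25a31, and they were taken by symbol from a named list, drawn up with earlier results of these data known, among the 29839 genes tested. Cells grown without feeders in serum and LIF were transfected with esiRNAs, pools of short interfering RNAs, against Dnmt1, Tet1, Mbd3, Mbd2 or Chd4. Control cells received an esiRNA against EGFP, a jellyfish protein with no mouse target, and all groups shared the line, the medium and the transfection. RNA was taken 48 hr after transfection and measured on 12 one-colour Agilent arrays, 2 for each of the 6 groups. The KD is transient and leaves part of the targeted mRNA in place.

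Germ cells use a set of genes for meiosis, for translational control and for the piRNA pathway, which silences transposons through small RNAs bound to Piwi proteins. In somatic cells the CpG-rich promoters of many such genes are methylated, and Dnmt1 copies that methylation to the new strand after replication. Tet1 oxidizes methylcytosine, Mbd2 binds methylated CpGs, and Mbd2 and Mbd3 belong to alternative forms of the NuRD complex, whose remodelling ATPase is Chd4. E2f6 and the Mga/Max pair of the Pcgf6 complex are further known repressors of germline promoters in ES cells.

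CpG dinucleotides are the sites that Dnmt1 methylates, and the 250 bases before the annotated start are given for the genes on which the results below turn, from RefSeq on GRCm38.p6, all on the minus strand, with each CpG in capitals. Tex101 (chr7:24672051-24672300), Ddx4 (chr13:112652311-112652560), Dazl (chr17:50293621-50293870) and Mael (chr1:166238745-166238994) are shown 5′ to 3′.
Tex101: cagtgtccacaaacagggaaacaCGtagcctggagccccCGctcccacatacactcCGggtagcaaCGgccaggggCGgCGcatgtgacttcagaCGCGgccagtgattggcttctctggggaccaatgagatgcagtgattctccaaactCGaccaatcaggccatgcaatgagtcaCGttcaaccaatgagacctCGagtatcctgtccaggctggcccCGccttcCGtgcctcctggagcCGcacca
Ddx4: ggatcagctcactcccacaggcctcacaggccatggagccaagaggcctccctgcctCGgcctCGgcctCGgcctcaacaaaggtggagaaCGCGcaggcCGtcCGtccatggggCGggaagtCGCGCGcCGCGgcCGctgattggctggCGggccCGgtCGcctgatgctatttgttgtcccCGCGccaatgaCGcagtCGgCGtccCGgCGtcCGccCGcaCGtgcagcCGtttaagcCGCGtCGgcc
Dazl: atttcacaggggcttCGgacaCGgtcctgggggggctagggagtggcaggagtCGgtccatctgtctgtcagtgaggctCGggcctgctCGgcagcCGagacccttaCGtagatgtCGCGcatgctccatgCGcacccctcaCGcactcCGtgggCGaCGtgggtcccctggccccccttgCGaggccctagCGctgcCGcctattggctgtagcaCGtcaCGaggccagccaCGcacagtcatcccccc
Mael: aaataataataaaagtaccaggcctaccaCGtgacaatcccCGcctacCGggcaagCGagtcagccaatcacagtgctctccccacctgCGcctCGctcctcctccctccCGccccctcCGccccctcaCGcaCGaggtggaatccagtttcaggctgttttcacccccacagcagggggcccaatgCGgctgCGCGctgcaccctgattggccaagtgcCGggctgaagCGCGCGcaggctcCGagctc

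All 10 genes had a promoter window in that table, from 250 bases before to 50 bases after the start. These windows held between 12 CpGs (Dpep3) and 38 CpGs (Ddx4), with a median of 20.5, against a median of 13 over 17492 protein-coding promoters and 7 over all 27025 promoters. The ratio of observed to expected CpGs had a median of 0.782 in the 10 genes and 0.576 in the protein-coding promoters. Ddx4 stood apart from the others, since 6.11% of protein-coding promoters held as many CpGs, while the Dazl window held 28, that of Mael 24 and that of Tex101 19. The letters CACGTG, an E-box of the kind Mga and Max bind, were present in 6 of the 10 windows (Ddx4, Sycp1, Sycp3, Mael, Slc25a31 and Mov10l1) and in 7.24% of all promoters (7.9% of protein-coding promoters). TCCCGC on either strand, the core of the E2f6 motif, was present in 5 of the 10 (Ddx4, Sycp1, Sycp3, Mael and Slc25a31) and in 20% of all promoters (25.7% of protein-coding promoters). Neither string occurred in the Dazl, Tex101, Asz1 and Dpep3 windows. Both motifs were chosen from general knowledge, and a match of letters is a description only.

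**Figure D1:**
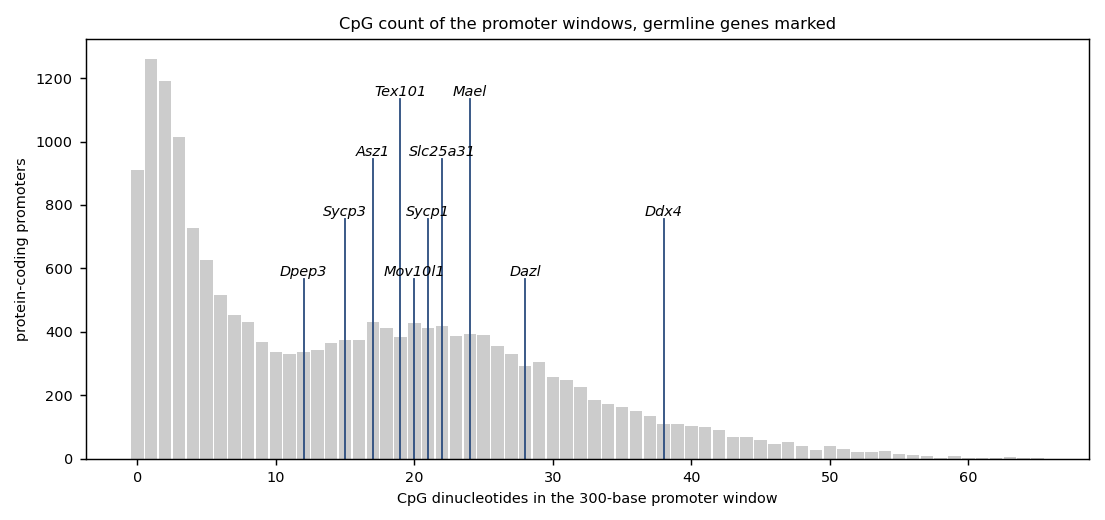
Number of CpG dinucleotides (x axis) in the 300-base promoter window of 17492 protein-coding genes (grey bars, number of promoters on the y axis), with the 10 germline genes marked by lines whose height carries no value. The marked genes lie between 12 and 38 CpGs, and 9 of them above the median of 13.

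Each value below is a spot's background-corrected intensity divided by the 75th percentile of its array, in log2, and a probe's level was never set against that of another probe. The 75th percentile lay between 1784.5 and 2451.6, and the share of probes that the scanner software marked well above background was 76.9% to 95.2%. Low values were raised to a floor of -4.86. The arrays lay on 3 slides, and slide 3 held no control array. Dnmt1 mRNA differed from the EGFP KD mean by -1.64 and -2.35 on the Dnmt1 KD arrays (limma adjusted p = 0.37), Mbd3 mRNA by -3.07 and -2.85 in Mbd3 KD and Chd4 mRNA by -1.55 and -1.01 in Chd4 KD. The Tet1 and Mbd2 labels were not borne out on 1 array each. The array labelled Tet1 KD replicate 1 had Tet1 mRNA at -0.02 relative to EGFP KD and Mbd2 mRNA (probe A_66_P133043) at -1.75. The array labelled Mbd2 KD replicate 1 had Tet1 mRNA at -1.79 and Mbd2 mRNA, from the same probe, at -0.24. Read with the same probes, Tet1 mRNA lay at -1.81 on Tet1 KD replicate 2 and Mbd2 mRNA at -1.77 on Mbd2 KD replicate 2. The other Mbd2 probe (A_55_P2036526) stood for the gene in the fit. That probe showed no lowering on the arrays labelled Mbd2 KD, at -0.08 and -0.07. On the arrays labelled Tet1 KD it lay at -0.2 (replicate 1) and -0.61 (replicate 2). Dnmt1 mRNA lay at -0.92 and 0.05 on Mbd2 KD replicates 1 and 2, and at 0.04 and -0.68 on Tet1 KD replicates 1 and 2, as labelled. All 12 ES cell markers of the list used, Pou5f1 among them, were well above background in EGFP KD. The Nanog probe carried that mark too but lay close to the floor there, at a mean of -4.34. In whole-culture RNA, fewer cells that express a gene and less of its RNA per cell cannot be told apart.

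Every gene of the germline set had 1 probe, and all 10 passed the filter on dim probes. Germline genes with methylated promoters are often taken as silent. The probes of 9 of these genes were well above background on both EGFP KD arrays. That mark was carried by 80.9% and 91.6% of all probes there, so the count does not set these genes apart. DNA methylation was not measured on these arrays, so the set is called by the germ cell roles of its genes. From separate assays the paper reports less methylcytosine after KD of Dnmt1, Mbd3 or Mbd2, as averages over classes of sites and in bulk DNA. Asz1, a piRNA pathway protein of germ cells, lay below the floor on all 12 arrays, so its values have no order and it enters no count. The other 9 genes are described gene by gene.

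Depletion of Dnmt1 came first, because it tests whether loss of the maintenance methyltransferase raises these mRNAs within 48 hr. No gene of the 9 was called in Dnmt1 KD (limma over 12 arrays, Benjamini-Hochberg adjusted p under 0.05), and 0% of the 29839 genes were. At an unadjusted p under 0.05, 4 of the 9 differed (1 higher, 3 lower), against 4.73% of all genes. The median log2 difference was 0.1 over the 9 genes and -0.01 over all genes, with 5 genes above 0 and 4 below. Whether the arrays of a KD and the controls overlapped is given below as a description, since its share over all genes was not counted.

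Dazl, an RNA-binding protein that promotes translation in germ cells, had a log2 signal of -2.42 and -2.48 in EGFP KD and of -2.37 and -2.32 in Dnmt1 KD. Both Dnmt1 KD arrays lay just above both control arrays. The difference was 0.1 with a 95% interval from -0.34 to 0.55 (limma adjusted p = 0.986).

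Ddx4, the Vasa RNA helicase, was at -2.18 and -2.4 in EGFP KD and at -3.06 and -2.69 in Dnmt1 KD. Both Dnmt1 KD arrays were lower than both controls, and the groups did not overlap. The log2 difference was -0.58 (standard error 0.14, limma unadjusted p = 0.00665, adjusted p = 0.595), and on slide 1 alone replicate 1 lay at -0.87 relative to its control.

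Of the piRNA pathway, Mael and Mov10l1 were measured above the floor. Mael, a protein of the perinuclear granules where piRNAs are made, had a log2 signal of 0.23 and 0.08 in EGFP KD and of -0.2 and -0.05 in Dnmt1 KD, with both Dnmt1 KD arrays below both controls. Its difference was -0.28 (standard error 0.12, limma unadjusted p = 0.0426, adjusted p = 0.938). Mov10l1, the helicase that hands precursor transcripts to the piRNA machinery, was at -4 and -3.46 in EGFP KD and at -3.8 and -3.23 in Dnmt1 KD. These overlapped, and the replicates of each group lay further apart than the difference of 0.21 (95% interval from -0.66 to 1.09).

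Sycp1 and Sycp3 encode the transverse filament and the lateral element of the synaptonemal complex, the structure that holds paired chromosomes together in meiosis. Sycp1 was at -4.18 and -4.36 in EGFP KD and at -3.54 and -3.73 in Dnmt1 KD, so both Dnmt1 KD arrays lay above both controls. Its log2 difference was 0.63 (standard error 0.21, limma unadjusted p = 0.0201, adjusted p = 0.859). Sycp3 went the other way, with -0.49 and -0.31 in EGFP KD and -1.05 and -0.82 in Dnmt1 KD. Again the groups did not overlap, and the difference was -0.54 (standard error 0.23, limma unadjusted p = 0.0492, adjusted p = 0.938).

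Tex101, a GPI-anchored surface protein of germ cells needed for sperm to reach the egg, was at -2.52 and -2.21 in EGFP KD and at -2.11 and -2.13 in Dnmt1 KD. Both Dnmt1 KD arrays were above both controls, close to the higher of them. The difference was 0.25 (95% interval from -0.17 to 0.67, limma adjusted p = 0.938).

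Dpep3, a membrane-bound dipeptidase of the testis that associates with Tex101, had the highest estimate in Dnmt1 KD and 1 of the least precise. It was at -2.37 and -3.9 in EGFP KD and at -2.26 and -1.92 in Dnmt1 KD. The 2 control arrays were 1.53 apart, and within slide 1 the difference was 0.12. Over all arrays it was 1.05 (standard error 0.48, 95% interval from -0.09 to 2.19, limma adjusted p = 0.938).

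Slc25a31, the ADP/ATP carrier of germ cell mitochondria, was at -3.02 and -2.86 in EGFP KD. Its Dnmt1 KD arrays lay on either side of the controls, at -3.99 and -2.05. The difference of -0.08 had a 95% interval from -1.71 to 1.54, which leaves a rise or fall of this gene undetermined.

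**Figure D2:**
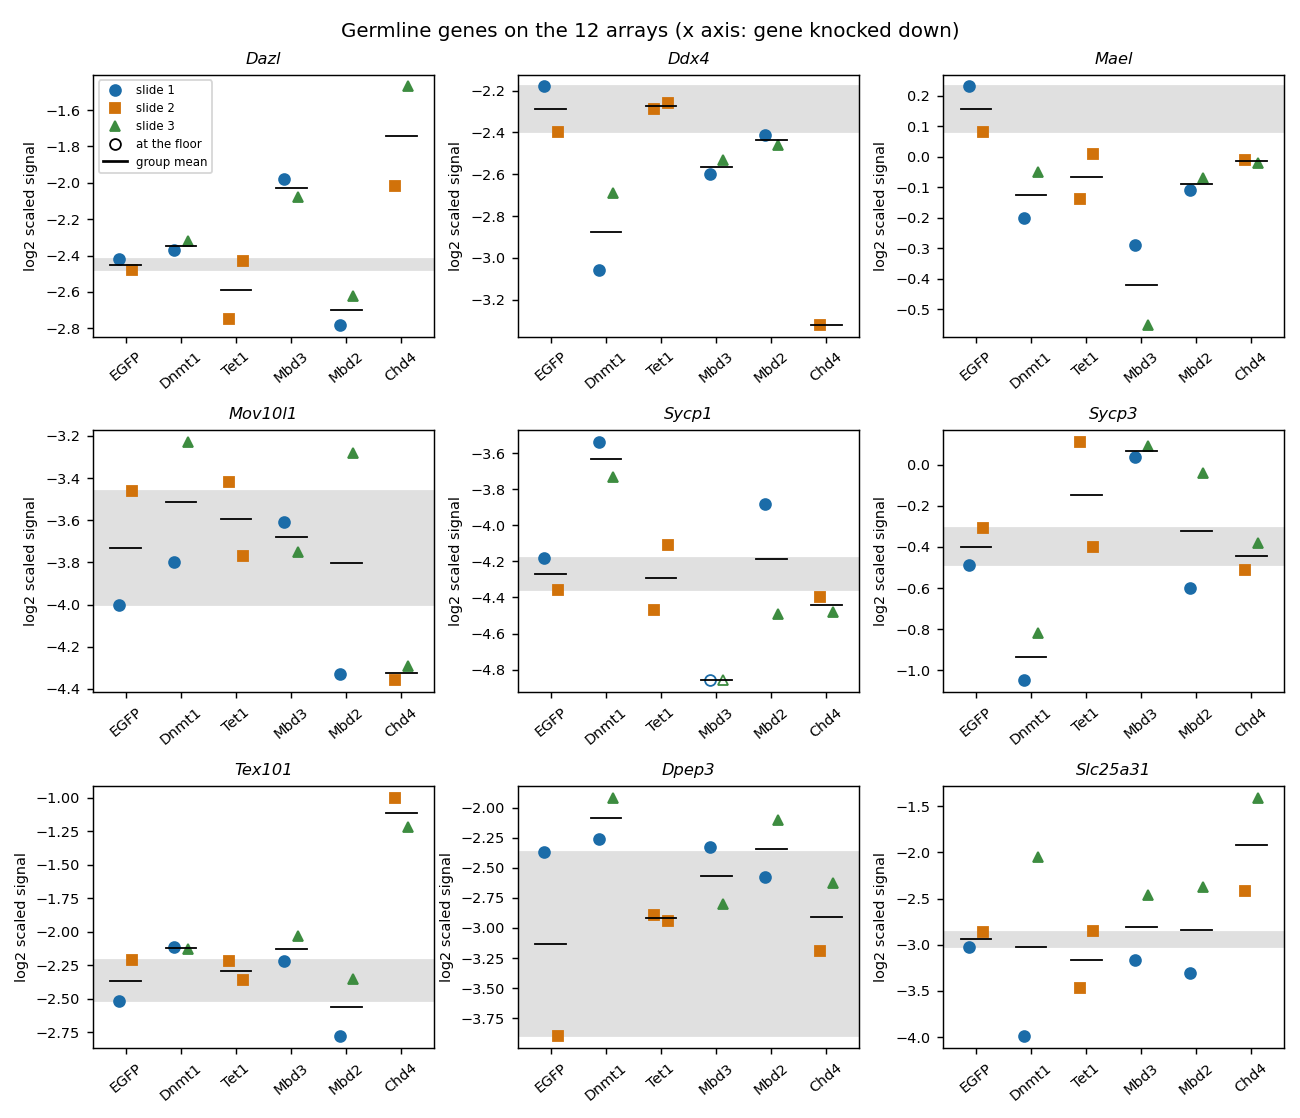
Log2 signal, scaled to the 75th percentile of each array (y axis, a separate range for each gene), of 9 germline genes in the 6 groups (x axis). Each symbol is 1 array, its shape and colour give the slide, open symbols are values at the floor, black lines are group means and the grey band spans the 2 EGFP KD arrays. Tex101 is highest on the 2 Chd4 KD arrays, at -1 and -1.22. Mael is below the band on all 10 KD arrays, an order not counted over all genes.

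Mbd3 KD and Mbd2 KD compare the readers of methylation that define the alternative NuRD forms. In Mbd3 KD 0 of the 9 genes were called by limma, against 0.764% of all genes, and 2 of 9 had an unadjusted p under 0.05, against 9.66%. Mael came nearest, at -0.29 and -0.55, with a log2 difference of -0.58 (standard error 0.12, limma adjusted p = 0.0974). Sycp1 was at the floor on both Mbd3 KD arrays, so its difference of -0.59 (limma adjusted p = 0.396) is a bound on a lower value. Sycp3 was at 0.04 and 0.09, above both controls, with a difference of 0.46 (limma adjusted p = 0.628).

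Dazl was also above both controls in Mbd3 KD, at -1.98 and -2.08, with a log2 difference of 0.42 (95% interval from -0.03 to 0.86, limma adjusted p = 0.559). The order of the synaptonemal complex genes was thus opposite to that in Dnmt1 KD, with Sycp1 low and Sycp3 high. None of these differences passed the adjusted threshold.

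On the arrays labelled Mbd2 KD, 0 of the 9 genes were called by limma and 0 had an unadjusted p under 0.05, against 0% and 2.08% of all genes. The differences lay between -0.26 (Dazl) and 0.79 (Dpep3). On the arrays labelled Tet1 KD, 0 were called by limma and 0 passed unadjusted, against 0% and 2.85% of all genes, and the differences lay between -0.23 (Mael) and 0.26 (Sycp3). Leaving out the 2 arrays whose target mRNA went against the label left both counts of called genes at 0.

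Mael was below both EGFP KD arrays on each of the 10 KD arrays, the highest of which was 0.01. The 5 comparisons share the same 2 controls, and the share of all genes with this order was not counted. The estimates ran from -0.58 with Mbd3 depleted to -0.17 with Chd4 depleted, and none was called.

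Chd4 KD was the comparison with calls. Tex101 was higher and Ddx4 lower, so 1 of the 9 genes was called in each direction, against 1.95% of all genes higher and 1.24% lower (3.19% in all). The Ddx4 call rests on 1 Chd4 KD array, whose spread was taken from the other groups. At an unadjusted p under 0.05, 3 of 9 differed, against 12.8% of all genes. The median difference of the 9 genes was -0.05 and that of all genes 0. The median absolute difference was 0.6 for the 9 genes and 0.26 for all genes.

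Tex101 reached a log2 signal of -1 and -1.22 in Chd4 KD, against -2.52 and -2.21 in EGFP KD. The other 8 arrays lay between -2.78 and -2.03, so the 2 Chd4 KD arrays stood above all others. The log2 fold change was 1.25 (standard error 0.18, 2.38-fold, limma adjusted p = 0.0132). On slide 2, which held a control, replicate 1 was 1.2 higher than that control, and on slide 3 replicate 2 was between 0.8 and 1.13 above the other arrays. With the slide as a block the difference was 1.16 (limma adjusted p = 0.0176).

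The Tex101 call was lost without 3 of the 4 arrays of the comparison. Without EGFP KD replicate 1 the limma adjusted p was 0.0879, without Chd4 KD replicate 1 it was 0.0827 and without Chd4 KD replicate 2 it was 0.0614, with differences between 1.09 and 1.36. Without EGFP KD replicate 2 it was 0.0373, and fitted on the 4 arrays of the comparison alone it was 0.212.

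Ddx4 was at -3.32 on Chd4 KD replicate 1, the lowest of its measured values, against -2.18 and -2.4 in EGFP KD. The spot on Chd4 KD replicate 2 carried the scanner software's outlier mark and was left out, so the estimate of -1.03 (standard error 0.18, 2.04-fold lower, limma adjusted p = 0.0397) rests on 1 Chd4 KD array. The marked spot was also low, at -3.93, and with such spots kept the difference was -1.33 (limma adjusted p = 0.0204). Without Chd4 KD replicate 2 the adjusted p was 0.0685, without EGFP KD replicate 1 it was 0.167, without EGFP KD replicate 2 it was 0.0874, and with the slide as a block the difference was -0.92 (limma adjusted p = 0.107). Without any 1 of the Tet1 KD, Mbd3 KD or Mbd2 KD arrays the Ddx4 call was also lost, while its direction stayed.

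Dazl was at -2.02 and -1.47 in Chd4 KD, above both control arrays and above the other 3 arrays of slide 3 by between 0.6 and 1.15. Its difference of 0.7 (standard error 0.19, limma unadjusted p = 0.00752, adjusted p = 0.127) did not pass. Slc25a31 was at -2.42 and -1.41, also above both controls, with replicates far apart. The difference was 1.03 (95% interval from -0.6 to 2.65, limma adjusted p = 0.714).

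Mov10l1 was at -4.36 and -4.29 in Chd4 KD, below both controls, with a difference of -0.6 (95% interval from -1.47 to 0.27, limma adjusted p = 0.66). The estimates of the remaining genes were -0.17 for Sycp1, -0.05 for Sycp3 and 0.23 for Dpep3, and each overlapped its controls or had an interval that held 0. The set therefore did not move one way in Chd4 KD.

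**Figure D3:**
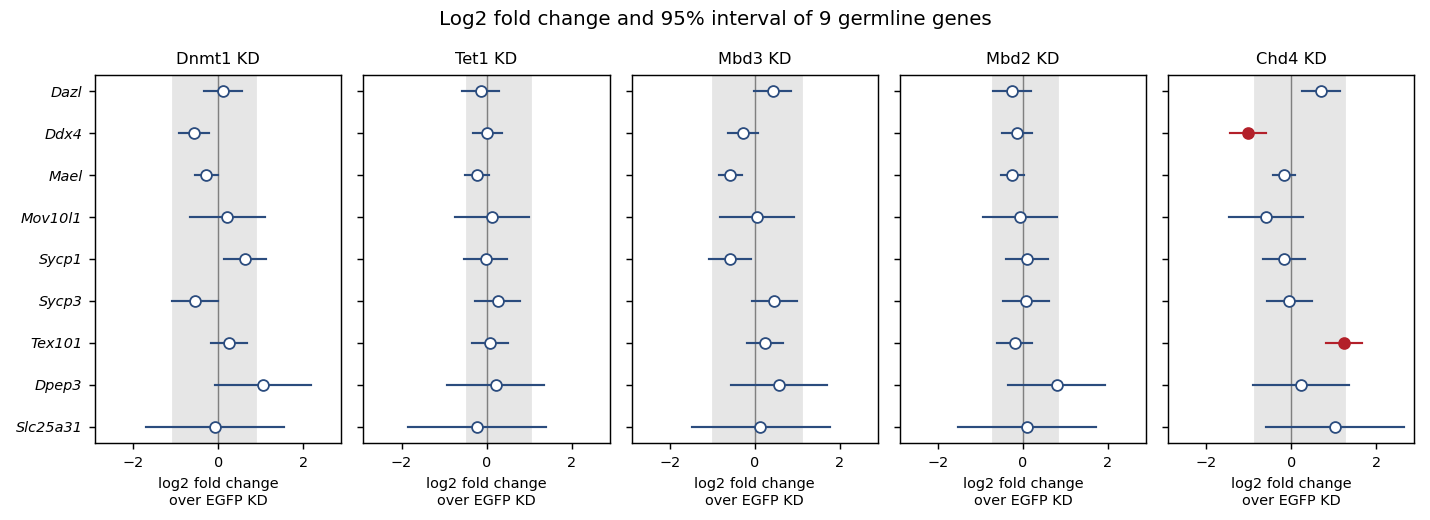
Log2 fold change over EGFP KD (x axis) with its 95% interval from limma (lines) for 9 germline genes (rows) in each KD (panels). Filled red points passed the adjusted threshold, open points did not, and the grey band holds the middle 95% of all genes tested. Red points occur in the Chd4 KD panel only, for Ddx4 at -1.03 and Tex101 at 1.25.

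Chd4 KD was also set directly against each other KD in the same fit, a comparison added after the values were seen. Tex101 was higher in Chd4 KD than in Dnmt1 KD by 1 (limma adjusted p = 0.036, against 2.65% of all genes called), and higher than in Mbd3 KD by 1.01 (adjusted p = 0.0499, 1.45% of genes called). It was higher than on the arrays labelled Tet1 KD by 1.18 (adjusted p = 0.0194, 2.83% called) and labelled Mbd2 KD by 1.45 (adjusted p = 0.00784, 3.11% called). The sign held in all 25 alternative settings for each of the 4 comparisons, but the call was lost in 17 of 25 against Dnmt1 KD, 21 against Mbd3 KD, 6 against Tet1 KD and 2 against Mbd2 KD. Without both arrays that went against their labels, no call remained for Tex101 in these direct comparisons. Ddx4 was lower than on the arrays labelled Tet1 KD (difference -1.04, from 1 Chd4 KD array, limma adjusted p = 0.0394, called in 7 of 23 alternatives). Dazl was higher than on the arrays labelled Mbd2 KD by 0.95 (limma adjusted p = 0.0474, called in 6 of 25).

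A list of 66 other germline genes, of which 62 were tested, gave the wider view of the same programme. In Dnmt1 KD 0 of 62 were called by limma and 6 had an unadjusted p under 0.05, 5 of them higher, against 0% and 4.73% of all genes. The smallest p belonged to Gtsf1, a piRNA pathway cofactor, with a log2 fold change of 0.74 (limma unadjusted p = 0.0012, adjusted p = 0.359), named because of that value. The list's median was 0.06, beside -0.01 for all genes.

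In Chd4 KD 4 of the 62 genes were called higher and 2 lower, which is 9.68% of the list, against 3.19% of all genes. Syce1, a central element protein of the synaptonemal complex, rose by 1.63 (standard error 0.21, limma adjusted p = 0.00876) and Gtsf1 by 1.37 (standard error 0.14, adjusted p = 0.00435). Syce3 (1.34) and Tex19.2 (1.11) were the other 2 that rose, and Ddx25 (-0.93) and Stag3 (-0.58) were those that fell, named after their values were seen. The list's median was 0.05. In Mbd3 KD 1 was higher and 2 were lower, or 4.84% against 0.764% of all genes, with Rhox6, a reproductive homeobox gene, at 1.52 (limma adjusted p = 0.0397) and Stk31, a testis kinase with a Tudor domain, at -1.39 (limma adjusted p = 0.0408). On the arrays labelled Tet1 KD and Mbd2 KD 0 were called by limma, and 1 and 2 genes had an unadjusted p under 0.05, against 2.85% and 2.08% of all genes. The direction of all called genes of this list held in the 26 alternative settings. Gtsf1 was called in Chd4 KD in 25 of them, Syce1 in 22, Syce3 in 21, Ddx25 in 19, Stag3 in 17 and Tex19.2 in 11. In Mbd3 KD Rhox6 was called in 9, Stk31 in 4 and Stag3, the other gene that fell there (-0.52), in 4. Fitted on the 4 arrays of a comparison alone none was called. Without both arrays against their labels the Mbd3 KD calls were lost, as were those of Syce3, Tex19.2 and Stag3 in Chd4 KD.

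**Figure D4:**
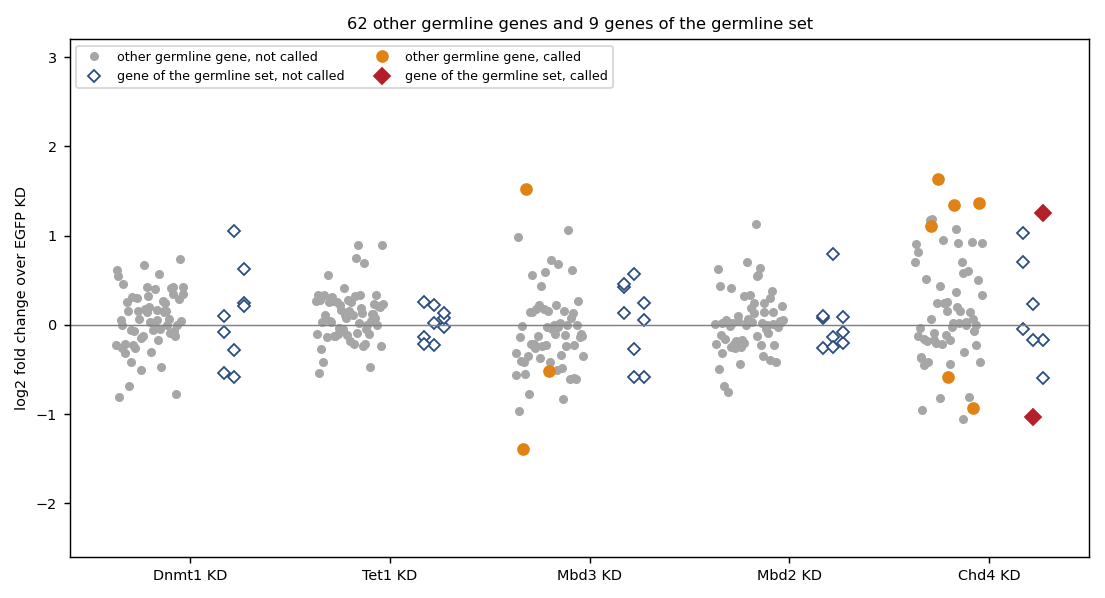
Log2 fold change over EGFP KD (y axis) in each KD (x axis) of 62 other germline genes (circles, orange where called) and of 9 genes of the germline set (diamonds, red where called). Horizontal position within a KD only spreads the points. No orange or red point is present in Dnmt1 KD, Tet1 KD or Mbd2 KD, and in Chd4 KD the called genes lie on both sides of 0.

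Among 31 factors known to silence germline promoters, 2 were called higher and 1, the targeted gene, lower in Chd4 KD. These were Cbx1, a heterochromatin protein, at 1.77 (limma adjusted p = 0.0188), E2f6 at 0.72 (adjusted p = 0.0485) and Chd4 itself at -1.28. In the 26 alternative settings Cbx1 was called in 21, Chd4 in 12 and E2f6 in only 9. Without both arrays against their labels all of these calls were lost, with E2f6 at a limma adjusted p of 0.104. With the targeted gene counted, the calls were 9.68% of the list, against 3.19% of all genes. At an unadjusted limma p under 0.05, 7 of the 31 differed (2 higher, 5 lower), against 12.8% of all genes. The targeted gene was among the lower ones, and the list's median was -0.06. In Mbd3 KD the only call was Mbd3, the targeted gene. In Dnmt1 KD 0 of 31 were called by limma, and 3 had an unadjusted p under 0.05, against 4.73% of all genes. Of these 3, 1 was the targeted Dnmt1 itself, at -1.99. Of 17 tested inducers and primordial germ cell genes, Tfap2c, a transcription factor of early germ cells, rose by 0.8 in Mbd3 KD (limma adjusted p = 0.0441) and by 1.05 in Chd4 KD (adjusted p = 0.00664), calls that held in 6 and 24 of 26 alternative settings. Ifitm3, an interferon-induced membrane protein of early germ cells, fell by 1.02 in Chd4 KD (limma adjusted p = 0.0221). Calls made up 5.88% of these genes with Mbd3 depleted (0.764% of all genes) and 11.8% with Chd4 depleted (3.19%). At an unadjusted limma p under 0.05, 6 of the 17 differed in Mbd3 KD (1 higher, 5 lower), against 9.66% of all genes. With Chd4 depleted the 17 also gave 1 higher and 5 lower, against 12.8% of all genes. Most of the differing genes of this list were thus lower, unlike Tfap2c.

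Single markers of other cells the cultures could hold were higher in Chd4 KD, in which 1.95% of all genes were called higher. Of 6 fibroblast markers these were Col1a1, by 2.49, and Thy1, by 1.42, and the summed scaled signal of the 6 was between 9 and 11.5 in Chd4 KD and between 4.28 and 4.83 in EGFP KD. Thy1 made up most of that sum, at 8.06 to 9.94 against 3.24 to 3.47. Of 8 early differentiation markers Otx2 was higher, by 1.84, and the sum was between 9.52 and 10.3 against 4.28 to 4.64, of which Otx2 was 6.7 to 8.05 against 1.92 to 2.2. The list's median log2 difference was 0.05, beside 0 for all genes. Of 6 spermatid markers 0 were called in any KD, and the sum in Chd4 KD, between 2.74 and 3.53, overlapped that in EGFP KD, between 3.19 and 3.51. The sum of the 12 ES cell markers was between 154 and 170 in Chd4 KD, below 176 to 190 in EGFP KD. Of these 12, 0 were called and 2 were lower at an unadjusted limma p under 0.05, against 12.8% of all genes. Their median log2 difference was -0.28. The sum of 7 primordial germ cell markers was between 15.9 and 16.9 against 12.7 to 13. Of these 7, 1 (Tfap2c) was higher and 2 were lower at an unadjusted limma p under 0.05. In Dnmt1 KD 0 markers of any of these lists were called by limma, and the fibroblast sum was between 6.34 and 6.87. In Mbd3 KD Thy1 was higher by 1.28 and Wt1, of the 7 gonadal somatic markers tested, lower (-3.89, limma adjusted p = 0.0108). The part of these markers in the values of Tex101, Ddx4 and the other germline genes was not tested.

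Dazl was compared with 18862 other genes with a symbol across the 12 arrays, as a description in which arrays of a group share their treatment. The most similar patterns were those of Iglon5 (Pearson's r = 0.943), Fam122b (0.933) and Pqlc3 (0.924).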

How the data were processed

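The authors hybridised one labelled RNA per array and deposited the scanner output of Agilent Feature Extraction 10.7.1.1, with a background-corrected intensity per spot that is not normalized between arrays. They also deposited a table of values relative to EGFP KD on a log2-like, compressed scale of unstated form, used only as an alternative. Of 43020 spots that are not controls, 2053 spot values over the 12 arrays carried an outlier mark and were left out. Intensities were divided by the array's 75th percentile, floored at 0.0344 and log2 transformed, and spots were averaged to 39429 probes. A probe was kept where some group had it well above background in both replicates, the brightest probe stood for its gene, and names came from RefSeq (GRCm38.p6) by accession. limma 3.58.1 (R 4.3.3) fitted 6 groups over 12 arrays, with Benjamini-Hochberg adjustment over all genes tested. Only the fit was tested on simulated gene values, drawn independently for each array without slide or replicate structure. The scaling, the floor, the outlier removal and the choice of probes were not part of that test. The genes of the set and all lists were chosen with earlier results of these data known. Named genes were the whole set, the targeted genes, the 2 called genes of each list and KD with the largest change and the 3 most similar to Dazl. Gtsf1 in Dnmt1 KD, E2f6 in Chd4 KD and the remaining called genes of the 62 were added after their values were seen. The replicates are stated to be biological, and 2 arrays per group limit precision.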

Additional observations from a re-analysis of the deposited data

How the results depend on the processing

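Outside Chd4 KD, 0 genes of the germline set were called in any KD in each of 26 alternative settings. In Chd4 KD the count of 2 was kept in 7 of 26. It was 1 (Tex101) with quantile normalization, normexp correction, probes well above background on all arrays, the lower floor, the slide as a block, the trended and robust prior, and without both arrays that went against their labels (added after seeing the data). It was 0 with the 4 arrays alone, and between 0 and 2 when 1 array was left out. Without Chd4 KD replicate 1 the single call was Dazl, at 0.97 (limma adjusted p = 0.0497, just under the threshold), and Ddx4 could not be fitted.

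With the replicate block the count in Chd4 KD was 1, with Tex101 at 1.25 (limma adjusted p = 0.0187) and Ddx4 at -1 (adjusted p = 0.0501, just over the threshold), and 0 in the other KDs. Correlations between the deviations of same-numbered arrays ran from -0.0421 to 0.767 (median 0.384) and exceeded 0.1 in 10 of 15 pairs of groups, not in all, so pairing was not taken as given. Outside Tet1 KD the replicate numbers overlap with the slides, and number and slide cannot be fully told apart.

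No called value of the germline set changed sign in any setting run. Tex101 in Chd4 KD ranged from 0.97 to 1.41 and was called in 22 of 26 settings, and Ddx4 ranged from -1.33 to -0.92 and was called in 7 of 24. The deposited table listed 5 of the 10 genes, with Tex101 above 0 and Ddx4 below 0 on both Chd4 KD arrays. Over all genes, calls in Dnmt1 KD went from 0 to 39 without EGFP KD replicate 2, and calls in Mbd3 KD from 228 to 17 with quantile normalization, 28 without EGFP KD replicate 1 and 0 without both arrays against their labels. Calls in Chd4 KD went from 952 to 416 with quantile normalization and 318 without EGFP KD replicate 1. Fitted on 4 arrays alone, both counts were 0. With 2 arrays a group precision was low, and no limit of detection was computed. Differences larger than a gene's median gap between replicates also went uncalled. For Slc25a31 in Chd4 KD the difference was 1.03 and that gap 0.82.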
